A study of Bos taurus with 81 samples.

Results

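H3K27ac was compared between the 8-cell embryo and the morula of cattle. The comparison used the 4 H3K27ac libraries of these stages, 2 per stage, out of 81 libraries in the series, and was restricted to the 29 autosomes. The series profiled H3K4me3, H3K27ac, H3K27me3 and H3K9me3 by CUT&Tag in oocytes and in vitro produced embryos, and open chromatin by ATAC-seq in blastocysts and their parts. In CUT&Tag an antibody brings a transposase to a histone mark, and the tagged fragments are sequenced and called as peaks. The 8-cell embryos (8C) were collected at 56 h and the morulae (MO) at 122 h after insemination, and 1000 to 1500 pooled blastomeres entered a library. Oocytes had been matured in vitro, and neither group was cultured with α-amanitin, according to the titles and the design of the series. The treatment text attached to these samples does name the inhibitor, so the untreated state rests on the titles and the design. Other H3K27ac groups are used below to follow the same positions: germinal vesicle oocytes (GV), 2-cell (2C, 32 h) and 4-cell embryos (4C, 44 h), 8-cell embryos grown with α-amanitin at 50 μg/ml (8A, 56 h), and, at 172 h, blastocysts (BL) and their separated trophectoderm (TE) and inner cell mass (ICM).

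H3K27ac is an acetyl mark found on active promoters and enhancers. H3K4me3 sits mainly on promoters, H3K27me3 is laid down by Polycomb repressive complex PRC2 and accompanies repressed developmental genes, and H3K9me3 marks constitutive heterochromatin and silenced repeats. Acetylation and PRC2 methylation occupy the same lysine 27, so a single histone tail cannot carry both. In cattle the main wave of embryonic genome activation falls around the 8-cell stage, and by the morula the blastomeres are compacting and the first cell lineages are about to separate.

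The 4 deposited lists held 80815 and 84007 autosomal peaks at 8C and 139879 and 105276 at MO. The first MO library stood apart by its many narrow peaks, with a median width of 550 bp against 800 bp in the second MO library and 900 and 850 bp at 8C. The lists carry no read totals, so sequencing depth was unknown and its part in the results below was not tested. Nothing in the labels says whether the libraries of a stage came from separate cultures, so their spread may be technical. With 2 libraries against 2, no exact two-sided p can be below 0.33. Differences between the stages are therefore given with the value of each library. No genes are named, because the peaks are on the ARS-UCD1.2 build and no annotation of that build was used here.

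H3K27ac covered more of the genome at MO, and the positions were largely different ones. Peaks covered 90.5 and 89.7 Mb at 8C and 115 and 113 Mb at MO. The groups did not overlap, and the means were 90.1 Mb ± 0.587 (SD, n = 2) and 114 Mb ± 1.803 (SD, n = 2), a log2 ratio of 0.34 (exact permutation test, two-sided p = 0.33). The share of bases common to a pair of lists among the bases covered by either (Jaccard index) was 0.479 between the 8C libraries and 0.593 between the MO libraries. Across the stages it lay between 0.148 and 0.159, well under either replicate pair. Of the bases covered in the 8C libraries, 30.6% and 29.6% were covered in an MO library on average, against 64.4% and 65.0% in the other 8C library.

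Broad stretches of H3K27ac took a larger share at MO. Peaks of 5 kb or more numbered 450 and 364 at 8C and 773 and 840 at MO. They held 3.24% and 2.58% of the covered length at 8C and 4.49% and 4.98% at MO (exact permutation test, two-sided p = 0.33). The ranges did not overlap for either measure. The difference of 1.82 points was 3.08 points in lists trimmed by score to one covered length, a trimming that favours wide peaks. The widest 8C peaks spanned 16.4 and 16.0 kb and the widest MO peaks 23.7 and 19.3 kb. Wide 8C peaks stayed covered more often than narrow ones. In the 8C libraries, 47.0% and 45.9% of the bases in peaks of 5 kb or more were covered in an MO library, against 22.3% and 21.1% of the bases in peaks under 1 kb. Wide peaks also repeated better within the stage, with 91.9% and 94.7% of their bases covered in the other 8C library against 50.5% and 49.8% for peaks under 1 kb. Among MO peaks the spread by width was smaller. Bases of MO peaks of 5 kb or more were covered at 8C in 28.0% and 25.8%, those of 2 to 5 kb in 31.1% and 30.1%, and those under 1 kb in 17.2% and 17.8%. Of the wide MO peaks, 49.03% and 46.7% touched a peak in both 8C libraries and 38.9% and 40.8% touched none in either. Of their bases 94.7% and 94.9% were covered in the other MO library.

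**Figure D1:**
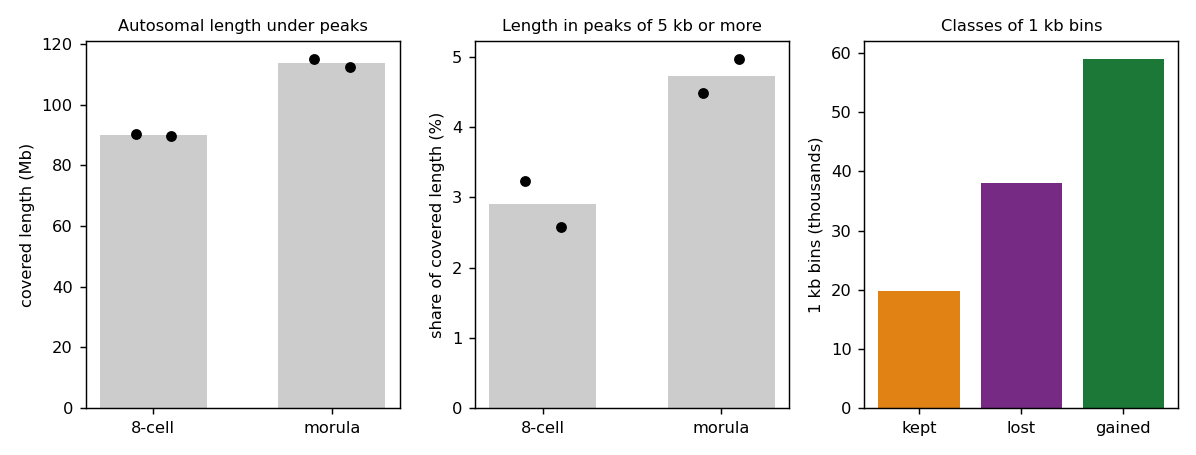
Autosomal length under H3K27ac peaks (left, Mb), share of that length in peaks of 5 kb or more (middle, %), and number of 1 kb bins per class (right, in units of 1000 bins). Black points are the 2 libraries of a stage and grey bars their mean, and both morula libraries lie above both 8-cell libraries, at 115 and 113 against 90.5 and 89.7 Mb.

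Positions were sorted into classes over 2488055 bins of 1 kb, a bin being called marked if peaks covered 50% of it or more. Gained bins were unmarked in both 8C and marked in both MO libraries, lost bins the reverse, and kept bins were marked in all 4. There were 59058 gained, 38018 lost and 19719 kept bins, which are 2.37%, 1.53% and 0.793% of all autosomal bins. Another 114685 bins were marked in some libraries without meeting any of these rules, 50553 of them in a single 8C library and 44092 in a single MO library. Kept bins made up 30.9% of the 63768 bins marked in both 8C libraries and 22.4% of the 87957 marked in both MO libraries, so in each stage the greater part of the reproducible H3K27ac lay outside the kept class. These counts follow from the rule and carry no test. Lost bins numbered 63463 without the first and 63126 without the second 8C library, and the ratio of gained to lost bins, 1.55 with all libraries, was then 1.01 and 1.00. This ratio was 2.04 and 1.91 without the first or second MO library, and 1.18 when the lists were trimmed by score to one covered length. In the 8C libraries 7201 and 7763 bins were covered to 45% and 7638 and 8248 to 50%, just outside and just inside the limit, and in the MO libraries 12706 and 9927 against 11404 and 10050.

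H3K27me3 was arranged the opposite way to H3K27ac. Of the gained bins, 14.1% and 14.3% carried H3K27me3 in the 8C libraries and 2.12% and 1.86% in the MO libraries. Of the lost bins, 2.01% and 2.09% carried it at 8C and 15.0% and 14.3% at MO. The difference was 7.14-fold in gained bins and 7.16-fold in lost bins, in opposite senses, and the libraries of the 2 stages did not overlap in either class. Over all bins the mark covered 5.50% and 5.61% at 8C and 6.55% and 6.00% at MO. H3K27me3 at gained bins was therefore 2.56 times its level over all bins at 8C and 0.316 times that level at MO, while at lost bins the figures were 0.369 and 2.34. Kept bins had 2.43% and 2.46% at 8C and 2.43% and 2.22% at MO, values that overlap and lie under the level over all bins at both stages.

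Calling H3K27me3 bins by the same rule, 6397 gained bins (10.8%) lost H3K27me3, against 2.98% of all bins, and 4335 lost bins (11.4%) gained it, against 3.75% of all bins. The matched directions were scarce, with 486 gained bins (0.823%) also gaining H3K27me3 and 150 lost bins (0.395%) also losing it. Kept bins were under the background in both senses, at 238 bins losing and 225 gaining H3K27me3 (1.21% and 1.14%). Bins with H3K27me3 in all 4 libraries of that mark were 110 of the kept bins (0.558%), against 1.09% of all bins.

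H3K9me3 showed the same pattern at gained bins and a smaller one at lost bins. Gained bins carried it in 18.4% and 18.8% at 8C and in 3.42% and 4.84% at MO, a 4.502-fold difference with no overlap. Lost bins carried it in 2.55% and 2.46% at 8C and in 6.67% and 8.16% at MO, 2.96-fold apart. Over all bins the share went the other way from the lost bins, from 6.76% and 6.73% at 8C to 4.58% and 5.76% at MO. A loss of H3K9me3 was called in 8741 gained bins (14.8%), against 3.88% of all bins, and a gain in 1857 lost bins (4.88%), against 2.56% of all bins. Kept bins held 3.27% and 3.63% at 8C and 3.56% and 4.52% at MO, and these values overlap. H3K9me3 was present in all 4 of its libraries in 101 kept bins (0.512%), against 1.13% of all bins.

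At 8C the 2 repressive marks mostly lay on the same bins. Of all bins with H3K27me3 in both 8C libraries, 86.5% also had H3K9me3 in both, and in gained bins the figure was 93.2%. At MO the overlap was 31.5% over all bins and 24.9% in lost bins. The bins that carried a repressive mark at MO in the lost class were thus chiefly H3K27me3 bins. Of the lost bins, 2808 (7.39%) had H3K27me3 alone at MO, against 3.45% of all bins. H3K9me3 alone was on 1073 (2.82%), near the 2.31% of all bins. Both without H3K4me3 were on 1084 (2.85%), against 1.64%. H3K27me3 with H3K4me3 and without H3K9me3 was on 877 (2.31%), against 0.155%. In the gained class at 8C, 6072 bins (10.3%) had both repressive marks without H3K4me3, against 3.51% of all bins. H3K9me3 alone was on 2801 (4.74%), against 1.63%, and H3K27me3 alone on 413 (0.699%), near the 0.535% of all bins. Counting bins with either mark in both libraries of the stage, 9790 gained bins (16.6%) were repressed in this sense at 8C, against 6.01% of all bins, and 8870 of these (90.6%) had neither mark in any MO library. Over all bins that fraction was 64.1%, and over the few such lost bins it was 32.3%. No 8C library had H3K27me3 or H3K9me3 in 77.4% of gained bins, against 91.0% of all bins, and no MO library had either in 80.03% of lost bins, against 89.2% of all bins. Neither mark was found in any 8C or MO library in 72.6% of gained, 78.6% of lost and 83.1% of all bins.

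H3K4me3 accompanied H3K27ac in the same direction. Gained bins were marked by H3K4me3 in 6.94% and 11.05% at 8C and in 14.8% and 17.7% at MO, and lost bins in 23.7% and 34.4% at 8C and in 9.57% and 10.2% at MO. The stages did not overlap in either class, although the 8C libraries differed from each other by more than the MO libraries did. Over all bins H3K4me3 covered 2.76% and 4.72% at 8C and 1.796% and 1.99% at MO. The higher value at gained bins thus ran against the whole, and the lower value at lost bins went with it. Lost bins had 7.95 times the level over all bins at 8C and still 5.22 times at MO, and gained bins 2.43 and 8.58 times. Kept bins had far more H3K4me3 than the other classes, 56.4% and 63.5% at 8C and 61.4% and 63.5% at MO. H3K4me3 was called gained in 3862 gained bins (6.54%), against 0.341% of all bins, and these were 45.5% of all H3K4me3 gains. It was called lost in 4876 lost bins (12.8%), against 1.3% of all bins, and kept in 9771 kept bins (49.6%), against 1.11% of all bins. Still, 76.8% of gained bins had no H3K4me3 in any 8C or MO library, while this held for 26.3% of kept bins. The matching share of all bins was not computed. Each of these libraries marked at most 4.72% of all bins, and in each of them gained bins were marked more often than all bins.

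**Figure D2:**
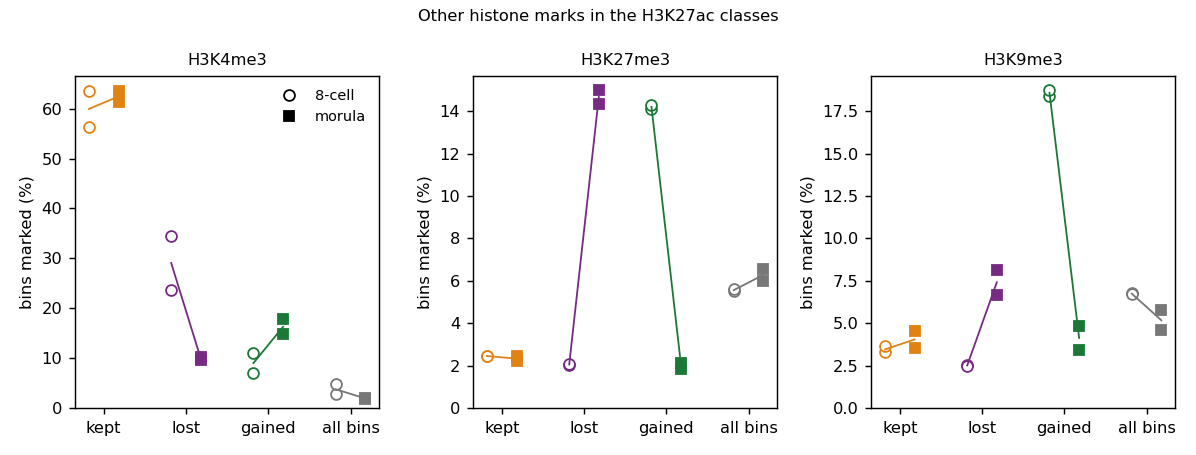
Percentage of the kept, lost and gained H3K27ac bins, and of all autosomal bins, marked by H3K4me3, H3K27me3 and H3K9me3. Open circles are 8-cell and filled squares morula libraries (2 each), lines join the means, and H3K27me3 goes from 14.1% and 14.3% to 2.12% and 1.86% in gained bins and from 2.01% and 2.09% to 15.0% and 14.3% in lost bins.

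The 14 other H3K27ac libraries had no part in choosing the classes, and the classes differed between those before and those after MO. Gained bins were marked in 32.6% and 35.9% of cases in BL, 54.9% and 52.8% in ICM and 31.2% and 31.5% in TE, and lost bins in 1.25% and 1.59%, 6.73% and 5.72%, and 2.22% and 2.66%. In the groups before MO, below called earlier, the order was turned. Gained bins were marked in 14.0% and 15.9% in GV, 5.73% and 7.51% at 2C and 1.81% and 2.00% at 4C. Lost bins were marked there in 25.6% and 29.6%, 16.4% and 18.3%, and 19.1% and 19.1%. In 8A, embryos of the same hour as 8C, gained bins had 7.37% and 7.97% and lost bins 41.8% and 43.0%. The percentage of gained bins marked minus that of lost bins marked was 36.5 points ± 8.89 (SD, n = 6 libraries, from 28.8 to 48.2) in BL, ICM and TE. In GV, 2C, 4C and 8A it was -18.8 points ± 10.2 (SD, n = 8 libraries, from -35.1 to -10.7). The means differed by 55.3 points, and all 6 later values lay above all 8 earlier ones. An exact permutation test over libraries gave two-sided p = 0.000333, the smallest that 3003 arrangements can give. It counts the 2 libraries of a group as separate units, although their spread may be technical. With the means of the 7 groups as units, the exact permutation p was 0.0286, the smallest that such a split can give. BL, ICM and TE were all collected at 172 h, and ICM and TE are parts of the blastocyst. The later groups are thus not independent stages, and the p-values given here do not measure a spread over several later stages. Without 8A the difference was 50.0 points (exact permutation test over libraries, p = 0.00216).

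Gained bins were marked at earlier stages and in 8A more often than the genome as a whole, though in a minority of cases. No GV, 2C or 4C library had H3K27ac in 76.4% of gained bins, against 90.4% of all bins, and 89.5% were unmarked in both 8A libraries, against 94.7%. After MO, 47.9% were marked in both ICM libraries and 26.9% in both TE libraries, against 3.21% and 1.89% of all bins. All 6 libraries of BL, ICM and TE marked 19.2% and none of the 6 marked 34.2%, against 1.06% and 94.4% of all bins. Gained bins marked in both ICM and no TE library made up 20.1% and the converse 2.87%. Over all bins these shares were 1.53% and 0.447%, and the ICM lists were the longer ones, marking 4.11% and 3.83% of all bins against 2.28% and 2.40% in TE.

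Lost bins were near the level of all bins after MO and above it before 8C. No library of BL, ICM and TE marked 90.6% of them, against 94.4% of all bins. Their share marked was 0.653 and 0.738 times that of all bins in BL, 1.64 and 1.49 times in ICM and 0.975 and 1.10 times in TE. Before 8C, 50.3% of lost bins had no H3K27ac in any GV, 2C or 4C library, against 90.4% of all bins, and 11.5% were marked in both 4C libraries, against 0.597%. In the transcription-blocked 8A embryos both libraries marked 33.7% of lost, 48.6% of kept and 4.80% of gained bins, against 2.65% of all bins.

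Kept bins had the highest shares marked in each of these groups. They were marked in both GV libraries in 50.1%, in both ICM libraries in 68.5% and in all 6 BL, ICM and TE libraries in 40.4% of cases, against 4.08%, 3.21% and 1.06% of all bins. Open chromatin followed the same order. All 9 ATAC libraries of BL, ICM and TE had a peak over 46.9% of kept, 15.2% of gained and 4.97% of lost bins, against 1.37% of all bins.

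**Figure D3:**
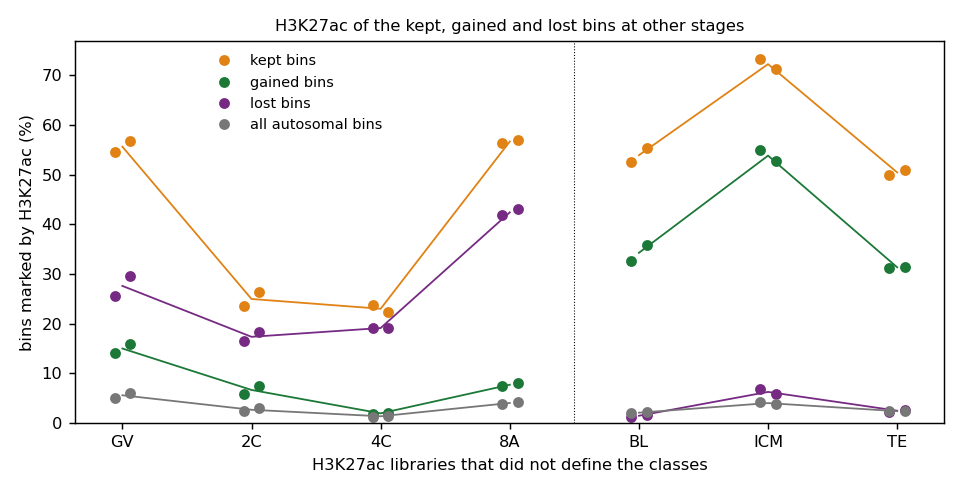
Percentage of kept, gained and lost bins, and of all autosomal bins, marked by H3K27ac in the libraries that did not define the classes. Each point is a library (2 per group), lines join group means and the dotted line stands where 8C and MO fall; from 8A to BL the gained bins go from 7.37% and 7.97% to 32.6% and 35.9% and the lost bins from 41.8% and 43.0% to 1.25% and 1.59%.

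Within each class the other marks picked out bins with different histories. Gained bins that lost H3K27me3 were marked by H3K27ac in the oocyte less often than all bins, at 2.67% and 3.17% against 5.05% and 6.05% in GV. Gained bins without a repressive mark in any 8C library had 16.8% and 18.9% there. In ICM the order was the other way, 65.8% and 61.7% against 52.9% and 51.1%, and the median over the 9 ATAC libraries was 41.6% against 31.3%. Gained bins that also gained H3K4me3 were marked in 69.1% and 71.9% in BL and 86.5% and 85.3% in ICM, and gained bins free of H3K4me3 in 25.1% and 28.4%, and 47.9% and 45.9%.

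Lost bins that gained H3K27me3 had been marked before 8C more often than lost bins with no repressive mark in any MO library. They carried H3K27ac in 43.3% and 44.3% at 4C and in 77.5% and 77.7% in 8A. Lost bins with no repressive mark in any MO library had 14.8% and 14.8% at 4C and 35.9% and 37.3% in 8A. The median over the 9 ATAC libraries was 28.5% in lost bins that gained H3K27me3 and 7.70% in those without a repressive mark. Lost bins that kept H3K4me3 in all 4 H3K4me3 libraries, 2976 in number, stood out by accessibility, with an ATAC median of 72.6% (68.1% to 83% over the 9 libraries). Lost bins that lost H3K4me3 had a median of 12.6% (10.8% to 24.0%). In ICM the former were marked by H3K27ac again in 34.9% and 28.2% and the latter in 5.21% and 4.16%. The subsets within a class were compared by their values only, and their differences were not tested.

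Gained bins were more clustered than lost and kept bins, and less than all bins marked in both MO libraries. They formed 34145 runs of neighbouring bins, and 40.7% of gained bins lay in runs of 3 kb or more, against 27.6% of lost and 30.6% of kept bins. Of all bins marked in both 8C libraries 41.7% lay in such runs, and of those marked in both MO libraries 47.9%. Within 5 kb of another bin of their class lay 80.7% of gained, 73.4% of lost and 71.2% of kept bins. When bins up to 12 empty bins apart were joined, clusters of at least 10 bins held 38.5% of gained, 22.6% of lost and 14.6% of kept bins, against 32.8% of all bins marked in both 8C and 46.5% of those marked in both MO libraries. The classes differ in their number of bins, and the part of this in the order was not tested.

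Longer gained runs had more repressive marking at 8C and more H3K27ac after MO. Isolated gained bins carried H3K27me3 in 9.82% and 10.2% and H3K9me3 in 12.9% and 13.2% at 8C. In runs of 5 kb or more these were 21.8% and 21.7%, and 28.4% and 29.2%. In BL, H3K27ac marked 22.6% and 25.8% of isolated gained bins and 49.4% and 52.5% of those in runs of 5 kb or more, and in ICM 46.0% and 43.1% against 69.6% and 68.0%. Each of these libraries had a higher value at every step from 1 kb through 2 kb and 3 to 4 kb to 5 kb or more.

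Longer lost runs had more H3K27me3 at MO and more H3K27ac at 4C and in 8A. Isolated lost bins carried H3K27me3 at MO in 9.73% and 9.41% and those in runs of 5 kb or more in 32.9% and 30.9%. H3K9me3 at MO was 5.43% and 6.54% in isolated bins and 13.3% and 16.4% in the longest runs. Both marks were higher in the longest lost runs already at 8C. H3K27me3 at 8C was 1.49% and 1.54% in isolated bins and 4.82% and 5.22% in runs of 5 kb or more. For H3K9me3 at 8C the values were 2.00% and 1.95% against 5.47% and 5.39%. In 8A embryos, of the same hour as 8C, H3K27ac marked 37.8% and 39.0% of isolated lost bins. In runs of 5 kb or more it marked 54.5% and 55.2%. At 4C it marked 16.8% and 17.3% of isolated lost bins and 26.9% and 25.0% in runs of 5 kb or more. In GV the values were closer, at 24.1% and 28.1% against 27.4% and 32.0%.

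**Figure D4:**
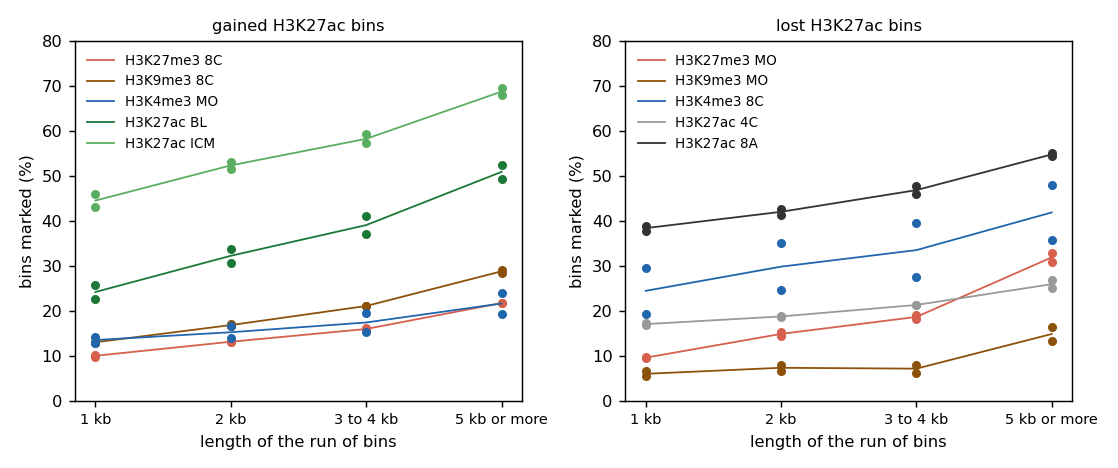
Percentage of gained (left) and lost (right) bins marked in the named libraries, by the length of the run of neighbouring bins they lie in. Points are libraries (2 per series) and lines their means; in gained bins H3K27me3 at 8C is 9.82% and 10.2% at 1 kb and 21.8% and 21.7% at 5 kb or more, and in lost bins H3K27me3 at MO is 9.73% and 9.41% and then 32.9% and 30.9%.

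A minority of gained bins bordered earlier H3K27ac. Bins adjacent to one marked in an 8C library made up 11.6% of gained bins and 5.11% of all bins unmarked at 8C. Those over 50 kb from any such bin made up 19.3%, against 30.6%, and the median distance was 14 kb against 25 kb. The 2 ends of this range differed in the other marks. Adjacent gained bins carried H3K4me3 at MO in 31.3% and 34.7% and H3K27me3 at 8C in 6.33% and 6.07%. Gained bins over 50 kb away carried H3K4me3 at MO in 9.87% and 12.2% and H3K27me3 at 8C in 20.4% and 21.2%. Lost bins lay likewise around MO H3K27ac. Bins adjacent to one marked in an MO library made up 15.4% of lost bins and 5.16% of all bins unmarked at MO, those over 50 kb away 22.7% against 35.0%, and the median distance was 13 kb against 28 kb. Adjacent lost bins had H3K27me3 at MO in 7.39% and 7.19%, and lost bins over 50 kb away in 18.1% and 17.5%. Adjacent lost bins were marked in ICM in 23.2% and 21.1% and distant ones in 1.30% and 0.904%.

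Some individual regions showed an exchange of marks at full length, and others did not. Values for a region are the percentage of its bases covered by peaks in each library. Regions are the longest runs of a class or of a class with another mark. In runs chosen with another mark, the high cover by that mark at the stage used follows from the choice. The gained run chr19:55927001-55948000, of 21 kb, was covered at 100% by H3K27me3 and by H3K9me3 in both 8C libraries and at 0% in both MO libraries. H3K27ac covered none of it at 8C and 96.2% and 96.0% at MO, and then 35.0% and 48.3% in BL, 66.0% and 64.3% in ICM and 50.0% and 43.6% in TE. The gained runs chr21:57616001-57632000 (16 kb) and chr19:54528001-54542000 (14 kb) likewise went from 100% under both repressive marks in both 8C libraries to 0% in both MO libraries. In the second of these H3K27ac reached 100% and 98.2% in ICM and 32.9% and 30.7% in TE.

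The gained run chr7:61078001-61099000 (21 kb) had no H3K27ac in any GV, 2C, 4C, 8A or 8C library. It was covered at 93.8% and 95.0% at MO and between 91.2% and 95.5% in the 6 later libraries. H3K9me3 covered 63.8% and 75.2% of it at 8C and none at MO, and H3K27me3 was absent at both stages. The longest gained run, chr2:127014001-127038000 (24 kb), had neither repressive mark in any of the 8C and MO libraries. Its H3K27ac was 98.5% and 96.3% at MO, 51.3% and 58.3% in BL, 14.6% and 20.4% in ICM and 48.3% and 48.3% in TE. This run was thus lower in ICM than in TE, unlike the gained class as a whole. In the remaining runs among the 5 longest, chr2:125401001-125423000 (22 kb) and chr28:27456001-27477000 (21 kb), repressive marks covered from 0% to 71.4% at 8C and nothing at MO.

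Of the gained runs fully marked by H3K4me3 at MO, the longest was chr6:116885001-116893000 (8 kb). It carried H3K4me3 already at 8C (71.3% and 97.5%), together with H3K27me3 (90% and 95%) and H3K9me3 (97.5% and 100%), and neither repressive mark at MO. In chr10:85157001-85164000 (7 kb) H3K4me3 covered 8.57% and 11.4% at 8C and 92.9% and 95.7% at MO, with H3K27ac at 97.1% to 100% in BL, ICM and TE. chr26:22784001-22791000 (7 kb) had 6.43% and 18.6% H3K4me3 at 8C and 95.7% in both MO libraries.

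Among lost runs, chr25:41592001-41610000 (18 kb) passed from H3K27ac at 96.7% and 95.0% and H3K4me3 at 75.8% and 89.7% at 8C to H3K27me3 at 100% in both MO libraries. H3K9me3 covered 56.7% and 54.4% of it at MO. It had neither repressive mark at 8C, and no H3K27ac at MO or in BL, ICM and TE. It had been covered by H3K27ac at 58.6% and 61.4% in 8A and 50.3% and 49.4% in GV. chr17:4535001-4552000 (17 kb) had H3K27me3 at 0% in both 8C libraries and 61.2% and 51.8% at MO, with no H3K9me3. chr29:37190001-37206000 (16 kb) went from 98.8% and 96.9% H3K27ac to none with no repressive mark at either stage.

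Lost runs near the ends of chromosome 15 had repressive marks already at 8C. In chr15:84859001-84887000, at 28 kb the longest lost run, the 8C libraries were covered by H3K27ac at 95.0% and 94.5%, H3K4me3 at 84.3% and 91.3%, H3K27me3 at 90% in each and H3K9me3 at 86.4% and 90%. At MO H3K27me3 and H3K9me3 covered at least 99.3% and H3K27ac nothing. The run lies close to the last peak on that chromosome, at 84.96 Mb. At the other end of the chromosome, chr15:69001-82000 (13 kb) had H3K27ac at 96.2% and 97.7%, H3K27me3 at 47.7% and 75.4% and H3K9me3 at 61.5% and 80% at 8C. In chr15:84815001-84834000 (19 kb) H3K9me3 covered 45.3% and 76.8% at 8C and H3K27me3 0% and 34.7%. None of these 3 regions had an ATAC peak in any of 9 libraries.

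Kept runs were shorter, at most 13 kb, and free of both repressive marks in the 5 longest. chr19:27312001-27325000 (13 kb) had H3K27ac at 90.4% and 85.8% at 8C and 93.8% and 90% at MO, and H3K4me3 between 63.5% and 78.1% in the 4 libraries of that mark. chr6:69717001-69729000 (12 kb) separated the blastocyst lineages, with H3K27ac at 100% in both ICM libraries and at 2.92% and 0% in TE. Its ATAC cover was 75.8% to 80.8% in ICM and 52.1% to 60.4% in TE. chr25:33471001-33483000 and chr29:42543001-42555000, of 12 kb each, were covered in every H3K27ac library of the series, with 24.6% as the lowest value. chr7:13580001-13591000 (11 kb) was covered at 92.3% and 84.1% at 8C and hardly in GV, 2C and 4C, at 0% to 2.73%.

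In windows of 1 Mb, gained and lost bins did not go together. The correlation of their numbers across 2473 windows was r = 0.09 (Spearman rho 0.14), given as a description since neighbouring windows share libraries and base composition. Gained and kept bins had r = 0.52, and lost and kept bins r = 0.50. The window with most gained bins was chr7:61000001-62000000, with 162 gained, 4 lost and 9 kept, and it holds the 21 kb run on chromosome 7 described above. At 8C, 33.7% of its bins carried H3K27me3 and 38.4% H3K9me3, and at MO 3.10% and 0.7% (means of 2 libraries). chr16:2000001-3000000 had 154 gained and 2 lost bins, and chr19:55000001-56000000 had 147 and 14. Both were likewise high in H3K27me3 at 8C, at 23.8% and 28.9%. At MO they had 7.60% and 13.55%, which is not under the 6.28% of all bins.

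Most lost bins in a window, 164, lay in chr29:5000001-6000000, beside 17 gained. H3K27me3 there was 5.35% at 8C and 1.95% at MO, and H3K9me3 7.95% and 7.65%. chr18:48000001-49000000 had 133 lost and 56 gained bins, and chr16:54000001-55000000 had 127 and 43. Unlike the gained windows at 8C, these windows were not rich in H3K27me3 at MO, with 7.05% and 1.45%. At 8C they had 13.2% and 0.15%, so the window on chromosome 18 was lower in H3K27me3 at MO than at 8C. Its H3K9me3 was also lower at MO, at 3.20% against 20.0% at 8C, while the window on chromosome 16 had 6.50% against 0.30%. Chromosome 16 thus holds windows at both extremes.

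The cover of the autosomes differed between the stages unevenly. Both MO libraries lay above both 8C libraries on 22 of 29 autosomes (75.9%) and below them on 4 (13.8%). On chromosome 22 peaks covered 2.50% and 2.43% at 8C and 5.76% and 5.26% at MO, a log2 ratio of 1.16. Chromosomes 11 and 21 followed with 0.72 and 0.67. On chromosome 22 there were 3.37 gained bins for each lost one, from 2055 gained and 610 lost.

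At the other end were chromosomes 27, 9 and 20, where H3K27ac covered less at MO. Chromosome 27 was covered at 3.37% and 3.89% at 8C and 3.09% and 3.21% at MO (log2 ratio -0.20), chromosome 9 had a log2 ratio of -0.18 and chromosome 20 of -0.13. Without the second 8C library these were -0.10 for chromosome 27 and -0.11 for chromosome 9, and without the first -0.31 for chromosome 27. The ratio of gained to lost bins was below 1 on these 3 chromosomes only. Kept bins made up 42.0% of the bins marked in both 8C libraries on chromosome 19 and 19.9% on chromosome 27. With all lists trimmed by score to one covered length, chromosomes 22, 11 and 21 had log2 ratios of 0.82, 0.39 and 0.34 and chromosomes 27, 9 and 20 of -0.60, -0.58 and -0.53, so the order of the 2 groups stayed while every value was lower.

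Towards the ends of the autosomes, the last 2 Mb held 31.9 gained, 18.3 lost and 7.10 kept bins per 1000, and the first 2 Mb 21.5, 11.5 and 5.76. Between them the values were 23.6, 15.3 and 8.00.

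**Figure D5:**
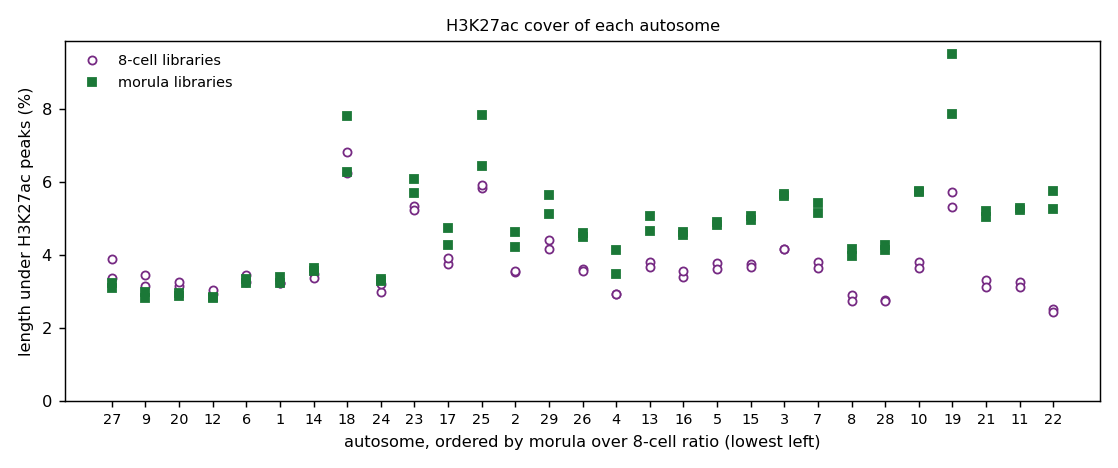
Percentage of each autosome under H3K27ac peaks in the libraries of the 8-cell stage (open circles, n = 2) and the morula (filled squares, n = 2). Autosomes are ordered by the log2 ratio of morula over 8-cell, taken as the difference of the mean log2 covered lengths. Chromosome 22, at the right, goes from 2.50% and 2.43% to 5.76% and 5.26%, and chromosome 27, at the left, from 3.37% and 3.89% to 3.09% and 3.21%.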

How the data were processed

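One peak list per library was deposited, each with chromosome, start, end, name and a score per peak. The authors' deposited score has no stated meaning and served only to rank peaks within a list. The genome build was ARS-UCD1.2, per the submitters' processing notes, which also name SICER, SAMtools 1.9, BWA 0.7.9a, Trim Galore 0.4.0, Picard 2.26.10 and cutadapt 1.8.3. The lists are named for epic2, so the caller was not settled. For its cutoff and control and for duplicates, the setting is not given in the sources used. Peak edges lay on a grid of 50 bp, and of 200 bp for H3K27me3 and H3K9me3, so widths are not compared between these marks.

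Of the 81 lists, 39 were used. Ends were taken as inclusive, and chromosome length as the highest peak end over all lists (2488 Mb of autosomes). Bins of 1 kb counted as marked from 50% cover. Python 3.11.15 with pandas 2.3.3 and NumPy 2.4.6 was used, and exact permutation tests over libraries were checked on simulated data. The 4 libraries compared hold 89.7 to 115 Mb under peaks. Without read totals no counting interval can be given. Regions named are the 5 longest runs of each class, the 3 longest gained runs with H3K4me3 at MO and the 3 longest runs with a repressive mark at the opposite stage, the 3 windows of 1 Mb with most gained or lost bins, and the 3 autosomes with the highest and lowest log2 ratio. The members, the classes and these rules were chosen with earlier results of these data known. Alternatives covered the bin rule and size, trimming by score, the limits for broad peaks and leaving out each library.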

Additional observations from a re-analysis of the deposited data

How the results depend on the processing

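The counts of bins moved with the bin rule by construction. Where any covered base marked a bin there were 106593 gained, 60355 lost and 38545 kept bins, where the whole bin had to be covered 15055, 7948 and 3108, and in bins of 5 kb 8180, 4765 and 1632. Leaving out each of the 4 H3K27ac libraries gave 40632 to 63463 lost bins, and a stage then rests on a single library. The difference in H3K27me3 at gained bins (-12.2 points) was -10.9 with any covered base, -13.8 in bins of 5 kb, -12.5 in trimmed lists and -13.0 to -10.5 without single libraries. That at lost bins (12.6 points) was 13.6 in bins of 5 kb, 12.1 in trimmed lists and 10.9 to 13.0 without single libraries. H3K9me3 at gained bins (-14.5 points) was -12.8 with any covered base, -16.9 in bins of 5 kb and -15.8 to -12.6 without single libraries. In kept bins the small H3K27me3 and H3K9me3 differences took either sign, for example 0.368 points for H3K27me3 with any covered base and -0.300 for H3K9me3 without the second 8C library. In the other 98 alternatives for values that answer a comparison, tested values kept their direction and their side of the threshold. Untested ones stayed within replicate spread and counts within 1.5 times. For covered length and broad share the side was fixed in advance, since their exact permutation tests cannot give p below 0.33. For these 2 measures only the direction could have changed. Leaving out each H3K4me3, H3K27me3 or H3K9me3 library, and the alternatives for named autosomes, were chosen after seeing the data. Deviations of same-numbered 8C and MO libraries had a correlation of 1.26e-05 over all bins, most of which were unmarked in all 4 libraries. This value cannot decide whether the replicate number pairs the libraries. With the number as a replicate block the log2 ratio of covered length was 0.34 and the difference in broad share 1.82 points (exact permutation test over pairs, p = 0.5 for both, the smallest that 2 pairs can give). No depth can be read from the lists, so a bin without a peak is uncalled and not shown to be free of the mark.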

Other observations

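On the X chromosome H3K27ac was scarcer than on the autosomes at both stages. It marked 1.29% and 1.00% of X bins at 8C and 1.899% and 2.08% at MO, which is 0.3335 and 0.262 times the autosomal share at 8C and 0.419 and 0.438 times at MO. By the autosomal rules there were 1498 gained, 570 lost and 342 kept bins among 139010 on X. The sex of the pooled embryos was not used here.

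H3K27me3 on X differed between the stages in the autosomal direction in gained and lost bins. It marked 7.34% and 8.14% of gained bins at 8C and 3.605% and 2.34% at MO. Of lost bins it marked 4.39% and 2.98% at 8C and 25.8% and 23.5% at MO. Kept X bins differed from autosomal ones, which lay under the level over all bins. H3K27me3 marked 11.1% and 12.9% of kept X bins at 8C and 16.7% and 17.3% at MO. Each value was above that of all X bins in its library, which was at most 4.29%. H3K9me3 did not have the autosomal direction in gained X bins. It marked 10.7% and 11.2% of gained X bins at 8C and 10.6% and 11.3% at MO, values that overlap. Of lost X bins it marked 1.93% in both 8C libraries and 24.4% and 24.0% at MO. Of kept X bins it marked 11.4% and 11.1% at 8C and 17.8% and 19.3% at MO. Over all X bins H3K9me3 was at 3.49% and 3.61% at 8C and 7.11% and 7.88% at MO, the reverse of the order on the autosomes. The difference between X and the autosomes was not tested.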
